A study of Mus musculus with 10 samples.

Results

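The PGC-1, ERR and PPAR regulators are the transcription factors and coactivators that set the output of mitochondrial and fatty acid genes in muscle. The 10 genes Ppargc1a, Ppargc1b, Perm1, Esrra, Esrrb, Esrrg, Ppara, Ppard, Nrf1 and Tfam were taken by gene symbol from a deposited expression table of 45706 genes, and all 10 were found. Their levels were also set beside those of Idh2, Sdha and Acadl in the same libraries. RNA came from mouse left ventricle, and 5 libraries carried the label TAC osimertinib and 5 the label TAC placebo, whose treatment is given as vehicle. TAC, transverse aortic constriction, narrows the aorta and loads the left ventricle, and both groups carry it, so no unloaded heart enters any comparison. Osimertinib is an EGFR kinase inhibitor used against lung cancer, and the study asks how it harms the heart. The labels used here give no strain, age, dose, time or animal for a library, and describe the material as all heart cells. Nothing in them says that the 5 libraries of a group are separate animals. A p-value here sets the group difference against the spread between these samples, which may be technical. Libraries differed by more than read counting gives in all 45 pairs, within and between groups (chi-square per degree of freedom of 22.6 or more). The source of that spread was not tested.

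PGC-1α (Ppargc1a, at chr5:51454250-51567726, minus strand, GRCm38) and PGC-1β (Ppargc1b) bind no DNA themselves and raise transcription by docking on nuclear receptors and on NRF1. The estrogen-related receptors (Esrra, Esrrb at chr12:86361117-86521628 and Esrrg at chr1:187608791-188214885, the last 2 on the plus strand) are orphan receptors that bind the promoters of tricarboxylic acid cycle and respiratory chain genes, while PPARα and PPARδ respond to fatty acids and drive fatty acid oxidation genes. NRF1 acts on nuclear genes of the respiratory chain and on Tfam (chr10:71225464-71238280, minus strand), whose product packages and transcribes mitochondrial DNA. Perm1 (chr4:156215868-156221307, plus strand, GRCm38) is a muscle protein induced by PGC-1 and ERR that takes part in the same programme.

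Stretches of upstream sequence are shown for the 3 members in which a searched motif was found, since these are the motifs through which regulators of this group are known to act. RefSeq (GRCm38.p6) gave 14 promoter entries for 9 of the 10 members, and the 250 bases before each start were searched on both strands. Perm1 is shown over its exon-free upstream stretch, and Tfam and Ppara over 30 bases around the match, with the match in capitals.
Perm1, chr4:156215677-156215867, plus strand: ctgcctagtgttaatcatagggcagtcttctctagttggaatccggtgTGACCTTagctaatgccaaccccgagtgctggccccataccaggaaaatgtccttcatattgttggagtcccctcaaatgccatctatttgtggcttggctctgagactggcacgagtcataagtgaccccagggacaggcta
Tfam, chr10:71238073-71238102, minus strand: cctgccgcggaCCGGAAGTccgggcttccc
Ppara, chr15:85735735-85735764, plus strand: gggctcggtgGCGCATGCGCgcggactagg

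The Tfam match is the letters CCGGAAGT of a GABP (NRF-2) site, 47 to 40 bases before the start, within an annotated exon, and 2.88% of all 32851 promoter windows hold these letters. The Ppara match is an NRF1 palindrome, GCGCA and GCGC with 1 base between them, 31 to 22 bases before the RefSeq start, held by 3.74% of windows. The gene as annotated in GENCODE begins earlier (chr15:85734983-85802819, plus strand), so this match lies inside the gene, outside annotated exons. The Perm1 match is the core of an ERR half-site, AAGGTCA read on the other strand, 202 to 196 bases before the start, held by 4.08% of windows. This core was added to the search after the Perm1 sequence had been read, so its match there was not a test of anything. The longer ERR element TNAAGGTCA, which contains the core and is held by 1.14% of windows, was in no member window. Neither were the PPAR direct repeat, made of 2 copies of AGGTCA with 1 base between them (0.0335% of windows), nor the cAMP element TGACGTCA (1.55%). A match is a run of letters and does not show binding.

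The libraries held between 15863265 and 21309296 estimated reads. Mitochondrial transcripts took 31.7% to 45.2% of the signal in osimertinib libraries and 38.1% to 63.4% in placebo libraries, with placebo library 5 at the top. The deposited CPM, the reads of a gene scaled to an equal library total, were therefore rescaled by median ratio, with a factor of 0.455 for placebo library 5 and 0.926 to 1.34 for the others, and levels below are rescaled CPM. The rescaling moved the median log2 fold change of all genes to 0.01, against 0.27 in the deposited CPM, and genes higher in osimertinib made up 49.8% of the called genes, against 98.1%. Cardiomyocyte markers, 8 of 8 detected, summed to 24474 to 39484 CPM in osimertinib libraries and 13431 to 29839 in placebo libraries. The atrial transcript Myl7 was at 267, 310, 0.288, 1149 and 0.324 CPM in osimertinib libraries 1 to 5 and at 256, 55.5, 0.862, 0 and 267 CPM in placebo libraries 1 to 5, while Bmp10 was at 0 throughout. Endothelial markers summed to 1073 to 1372 CPM in osimertinib and 1216 to 1854 CPM in placebo, and macrophage markers to 173 to 229 CPM and 123 to 174 CPM in the same order. Skeletal muscle markers summed to 1090 to 2260 CPM in osimertinib and 347 to 1487 CPM in placebo. Of those 6 genes only Ckm, which heart muscle also expresses, passed the filter on low values, and Myh4 was at 0 in every library.

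Esrrb, Esrrg and Tfam were higher in osimertinib hearts at a limma adjusted p under 0.05, and no member was lower. That is 3 of the 9 members that passed the filter on low values, beside 10.4% of all tested genes called higher, 10.5% called lower and 20.8% in either direction. In the deposited CPM the called members were Esrrb, Esrrg and Perm1, beside 6.62% of genes called higher, 0.13% lower and 6.74% in all. Tfam was the 1 member whose groups did not overlap, beside 5.72% of genes not overlapping and higher and 6.82% not overlapping and lower. The calls were close to the threshold, and leaving out osimertinib library 3 or 5, or placebo library 1 or 2, left 0 members called, and leaving out osimertinib library 2 or placebo library 5 left 1, while leaving out placebo library 3 gave 5. In whole ventricle, more cells of a type and more RNA per cell cannot be told apart.

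**Figure D1:**
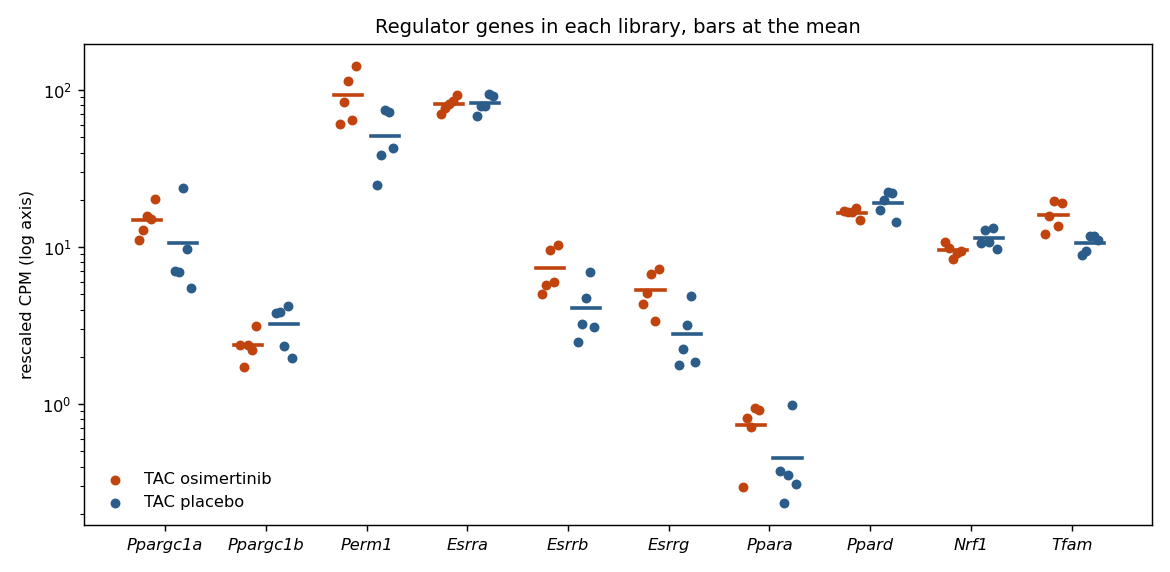
Rescaled CPM (log axis) of the 10 regulator genes in the 5 TAC osimertinib (orange) and 5 TAC placebo (blue) libraries, with a bar at each mean. Tfam alone has every osimertinib library above every placebo library, and 1 placebo library has the highest Ppargc1a of all 10.

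Among the coactivators, Ppargc1a stood at 11.02, 12.8, 15.7, 15.03 and 20.3 CPM in osimertinib libraries 1 to 5, and at 7.01, 6.99, 23.9, 9.77 and 5.47 CPM in placebo libraries 1 to 5. The 5 osimertinib libraries were above 4 of the placebo libraries, and placebo library 3 was above every other library. Over all genes the difference did not pass, at a log2 fold change of 0.65 ± 0.32 (SE; limma, adjusted p = 0.154). Without placebo library 3 it was 0.98 with an adjusted p of 0.0159. With all libraries kept, it was also called with the atrial transcripts as a covariate (0.74, adjusted p = 0.0297).

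Ppargc1b, the β coactivator, had a range of 1.72 to 3.13 CPM in osimertinib libraries and 1.96 to 4.19 CPM in placebo libraries, with 0 of 5 osimertinib libraries above the placebo mean. Its log2 fold change of -0.35 ± 0.21 did not pass (limma adjusted p = 0.238).

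Perm1 was at 61.1, 83.4, 115, 64.9 and 143 CPM in osimertinib libraries 1 to 5 and 25.0, 38.7, 74.8, 72.6 and 42.6 CPM in placebo libraries 1 to 5. Osimertinib libraries 3 and 5 were highest, and osimertinib libraries 1 and 4 lay below placebo libraries 3 and 4, so the groups overlapped. The log2 fold change was 0.91 ± 0.31, just outside the threshold (limma adjusted p = 0.0548), and the deposited CPM gave 1.19, which passed (adjusted p = 0.0214).

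Of the 3 ERR receptors, Esrrb and Esrrg passed the test and Esrra did not. Esrra, the ERR of highest level here, was at 70.9, 76.6, 82.1, 84.8 and 92.7 CPM in osimertinib libraries 1 to 5 and at 68.9, 79.4, 79.3, 94.2 and 91.5 CPM in placebo libraries 1 to 5. The groups covered nearly the same range, and the log2 fold change was -0.02, with a 95% interval of -0.27 to 0.24 and a limma adjusted p of 0.923. The deposited CPM turned the sign of that change, at 0.27 (adjusted p = 0.689).

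Esrrg, known for driving oxidative metabolism in the newborn heart, was at 4.35, 5.07, 6.71, 3.41 and 7.24 CPM in osimertinib libraries 1 to 5 and at 1.78, 2.25, 3.19, 4.85 and 1.86 CPM in placebo libraries 1 to 5. Placebo library 4 lay among the osimertinib libraries and the other placebo libraries below them. Esrrg rose, with a log2 fold change of 0.87 ± 0.26 (limma, adjusted p = 0.0361).

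Esrrb, best known for its part in pluripotent cells, was at 5.01, 5.78, 9.59, 5.96 and 10.3 CPM in osimertinib libraries 1 to 5 and at 2.48, 3.24, 4.76, 6.95 and 3.10 CPM in placebo libraries 1 to 5. Again placebo library 4 was the 1 that overlapped. Esrrb rose too, with a log2 fold change of 0.79 ± 0.26 (limma, adjusted p = 0.0499). Its call was lost without a filter on low values (adjusted p = 0.103), with quantile normalization (0.0570), without a variance trend (0.0565) and with a pseudocount of 2 (0.0514). The call of Esrrg was lost without that filter (adjusted p = 0.0773) and with the replicate block (0.0529).

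The PPARs gave no call. Ppara, the main fatty acid sensor of liver and heart, was at 0.298 to 0.952 rescaled CPM in osimertinib and 0.234 to 0.983 in placebo. The filter on low values used the deposited CPM and asked for at least 1 CPM in at least 5 libraries. There Ppara reached 1 CPM only in osimertinib library 4 (1.13), so it was not tested across genes. Its groups did not differ beyond their spread (exact permutation test, 2-sided, p = 0.183, n = 5 each). Ppard, the more widely expressed PPAR, was at 14.9 to 17.7 CPM in osimertinib libraries and 14.4 to 22.3 CPM in placebo libraries, with a log2 fold change of -0.19 ± 0.13 (limma adjusted p = 0.298) that was 0.09 in the deposited CPM.

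Downstream of these, Nrf1 was at 10.8, 9.83, 8.44, 9.17 and 9.46 CPM in osimertinib libraries 1 to 5 and at 10.6, 12.8, 10.8, 13.2 and 9.71 CPM in placebo libraries 1 to 5. All 5 osimertinib libraries were below the placebo mean, but the log2 fold change of -0.25 ± 0.11 did not pass over all genes (limma adjusted p = 0.136), and it was 0.02 in the deposited CPM.

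Tfam was at 12.2, 15.8, 19.8, 13.7 and 19.1 CPM in osimertinib libraries 1 to 5 and at 8.88, 9.38, 11.8, 11.7 and 11.05 CPM in placebo libraries 1 to 5, so the lowest osimertinib library lay above the highest placebo library. Its log2 fold change was 0.57 ± 0.15, a rise that passed over all genes (limma, adjusted p = 0.0248), and the exact permutation test gave p = 0.00794, the smallest that 5 against 5 allows. The deposited CPM gave a change of 0.84 that missed the threshold (limma, adjusted p = 0.0796).

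**Figure D2:**
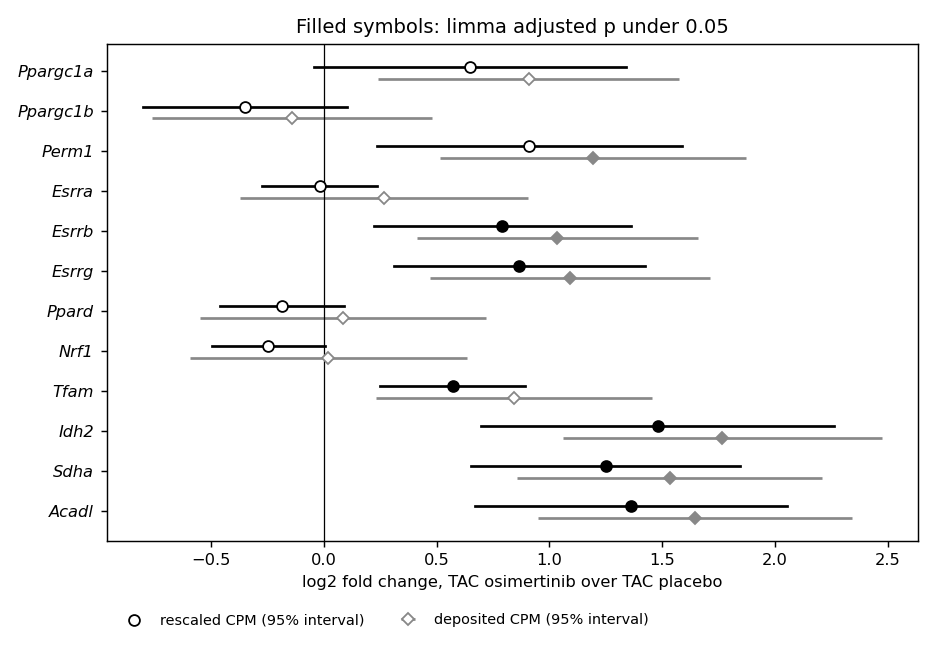
Log2 fold change of TAC osimertinib over TAC placebo with 95% intervals, for rescaled CPM (black circles) and deposited CPM (grey diamonds), filled where the limma adjusted p was under 0.05. Esrrb and Esrrg are filled on both scales, Tfam only when rescaled, and Perm1 only as deposited.

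The enzymes set beside the regulators all rose. Idh2, the mitochondrial NADP-dependent isocitrate dehydrogenase, was at 820, 1023, 1584, 757 and 2006 CPM in osimertinib libraries 1 to 5 and 229, 367, 584, 795 and 304 CPM in placebo libraries 1 to 5, a log2 fold change of 1.48 ± 0.36 (limma adjusted p = 0.0209). Sdha, a subunit of respiratory complex II, rose by 1.25 ± 0.28 (adjusted p = 0.0170). Acadl, which opens the oxidation of long-chain fatty acids, rose by 1.36 ± 0.32 (adjusted p = 0.0187). Leaving out osimertinib library 3 ended all 3 calls (adjusted p of 0.0613 for Idh2, 0.0503 for Sdha and 0.0570 for Acadl). The calls of Idh2 and Acadl also ended without osimertinib library 5 (0.0555 and 0.0507) or placebo library 2 (0.0523 and 0.05002), and that of Idh2 without placebo library 1 (0.0503).

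Cardiomyocyte markers moved with these results. Library by library they summed to 24474, 28128, 34500, 25387 and 39484 CPM in osimertinib and 13431, 17878, 27521, 29839 and 18031 CPM in placebo, so osimertinib libraries 3 and 5, highest in Perm1, Esrrb and Idh2, were also highest in cardiomyocyte transcripts. With the log2 sum of these markers as a covariate, a setting added after the data were seen, 0 members were called and the log2 fold change was 0.06 for Ppargc1a, 0.11 for Perm1, 0.16 for Esrrb, 0.28 for Esrrg and 0.30 for Tfam, with limma adjusted p between 0.244 and 0.939. The 3 enzymes were at 0.56 to 0.59 with adjusted p of 0.0642 to 0.0681. Over all genes, 65 of 12350 were called higher in that setting. With the atrial transcripts as the covariate instead, 5 members were called, beside 2589 of 12350 genes called higher. Besides Ppargc1a these were Perm1 at 1.04, Esrrb at 0.90, Esrrg at 0.97 and Tfam at 0.62 (limma adjusted p of 0.000276 to 0.000717). The 3 enzymes were then at 1.36 to 1.63 (limma adjusted p of 6.91e-05 or below). The part of cell make-up in the changes was not tested beyond these settings.

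Ratios between partners were also compared within each library. The Ppargc1a to Ppargc1b log2 ratio was 2.00, 2.58, 2.48, 2.52 and 2.51 in osimertinib libraries 1 to 5 and 0.81, 0.79, 3.11, 1.13 and 1.28 in placebo libraries 1 to 5, with placebo library 3 alone above the osimertinib libraries. The difference was 1.00 (exact permutation test, p = 0.0476; 0.0595 adjusted over the 5 ratios, n = 5 each). The Tfam to Nrf1 difference was 0.82 and the Esrrg to Esrra difference 0.89, both higher in 5 of 5 osimertinib libraries than the placebo mean, with the same adjusted p of 0.0595 by the exact permutation test. The Ppara to Ppard difference was 0.59, in 4 of 5, and had that adjusted p too. With Ppara under 1 rescaled CPM in every library, this difference depended on the setting. It was 0.85 with a pseudocount of 0.1, 0.34 with a pseudocount of 2 and 0.45 in the deposited CPM (exact permutation test, adjusted p = 0.278). The Perm1 to Ppargc1a difference was 0.26 (exact permutation p = 0.389). None of the 5 passed 0.05 after adjustment. Without placebo library 3, 3 passed at an adjusted p of 0.0397 (exact permutation test): Ppargc1a to Ppargc1b at 1.42, Esrrg to Esrra at 0.96 and Tfam to Nrf1 at 0.87. Without osimertinib library 1 or 4, 2 passed.

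Per kilobase of the longest coding transcript, Esrra was at 36.3 rescaled CPM per kb in osimertinib libraries, above Perm1 at 23.9, Ppard at 5.06, Tfam at 3.87, Nrf1 at 2.66, Ppargc1a at 2.31, Esrrb at 1.71, Esrrg at 1.00, Ppargc1b at 0.648 and Ppara at 0.217. Perm1 and Ppard, and Ppargc1b and Ppara, were neighbours whose ranges over the 5 libraries were separate, and the other neighbours overlapped. In placebo libraries the levels were 36.9 for Esrra, 13.01 for Perm1, 5.85 for Ppard, 3.19 for Nrf1, 2.54 for Tfam, 1.65 for Ppargc1a, 0.955 for Esrrb, 0.882 for Ppargc1b, 0.519 for Esrrg and 0.132 for Ppara per kb. There Esrra and Perm1, Ppard and Nrf1, and Esrrg and Ppara had separate ranges. The order depends on the transcript chosen: with the median coding length, Tfam came above Ppard in osimertinib, at 19.2 against 11.2 per kb.

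Across the 10 libraries, 5 members followed the enzymes closely. Of 27 relations (9 members with Idh2, Sdha and Acadl), 15 passed a permutation test of Pearson's r after Benjamini-Hochberg adjustment, those of Ppargc1a, Esrrb, Esrrg, Perm1 and Tfam, and 13 passed by Spearman's rho. The same 5 members passed with each enzyme, so the 15 are not separate findings. Such correlation was common in the table: r was over 0.7 for 5 of 9 members with each enzyme, beside 21.9% of all tested genes with Idh2, 22.7% with Sdha and 22.1% with Acadl. The enzymes formed no separate clusters of libraries, the largest gap being 19.97% to 29.5% of the range. Because the enzymes differ between groups, r was also taken over deviations from the group means (exact permutation within groups), where 14 relations passed, 13 of them among the 15.

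Perm1 with Idh2 had r = 0.96 (permutation p = 1e-05, the smallest the resamples can give, adjusted 9e-05) and rho = 0.88 (permutation p = 0.00159), and r = 0.96 for the deviations (exact permutation, adjusted p = 0.00214). Without the 2 libraries farthest in Perm1, it was 0.93. With Sdha and with Acadl, Perm1 had r = 0.96 and r = 0.97. Esrrg with Idh2 had r = 0.98, rho = 0.99 (permutation p = 2e-05) and 0.97 for the deviations, and with Sdha it had r = 0.93, with deviations at 0.85. Esrrb reached 0.97 with Idh2, 0.96 with Sdha and 0.95 with Acadl, and Tfam 0.93, 0.98 and 0.93 with the same enzymes. For the deviations, Esrrb kept 0.91 to 0.97 and Tfam 0.82 to 0.94.

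**Figure D3:**
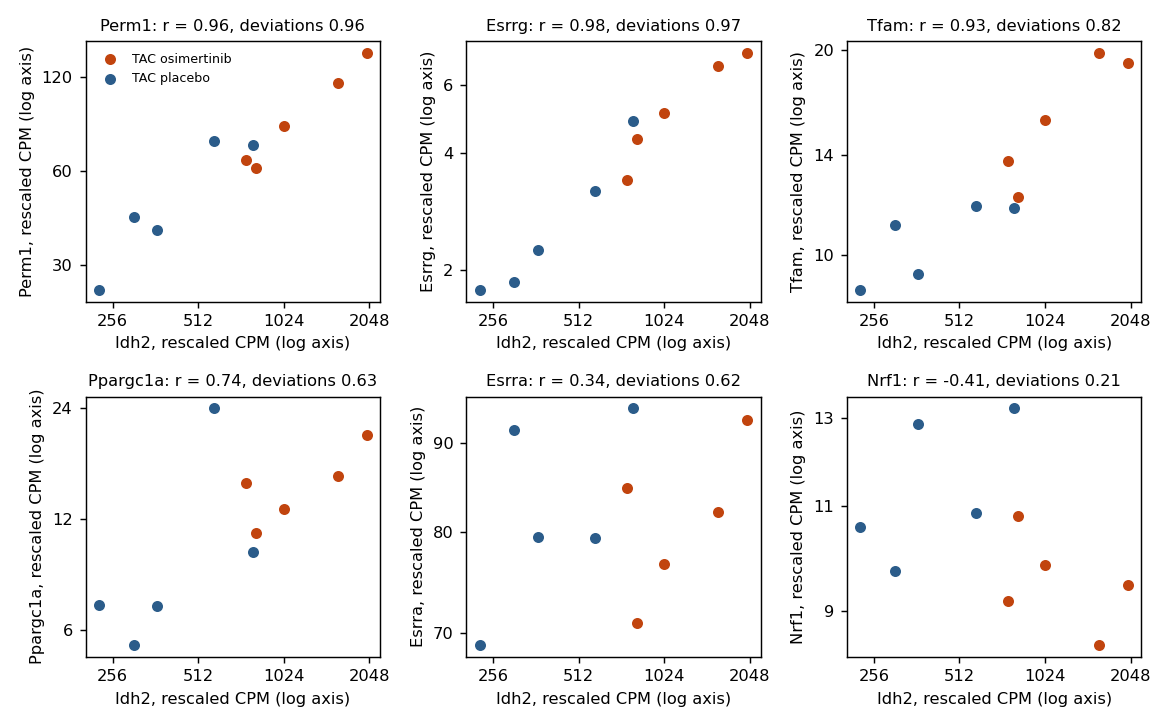
Level of 6 regulators against Idh2 in the 10 libraries (rescaled CPM, both axes log), TAC osimertinib in orange and TAC placebo in blue, with r over all libraries and over deviations from the group means in each title. Perm1, Esrrg and Tfam lie along a line with Idh2 within each group, and Nrf1 does not.

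Ppargc1a followed the enzymes less closely, at r = 0.74 with Idh2, 0.72 with Sdha and 0.82 with Acadl. Its deviations from the group means gave 0.63 and 0.60 for Idh2 and Sdha, which did not pass (exact permutation, adjusted p = 0.116), and 0.78 for Acadl, which did (adjusted p = 0.0133). Without placebo libraries 3 and 5, the 2 farthest in Ppargc1a, r was 0.92, 0.96 and 0.94. Esrra did not pass over all libraries, with r = 0.41 for Sdha, while its deviations passed at 0.78 (exact permutation, adjusted p = 0.0283). The 12 relations of Ppargc1b, Ppard, Esrra and Nrf1 ran between r = -0.56 for Nrf1 with Sdha and 0.41, and none passed. In the deposited CPM the lowest of these 12 was 0.25, so their sign depends on the scaling.

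The same correlations were set beside tissue make-up, as settings added after the data were seen. In the 6 libraries with Myl7 above 50 CPM, the 15 relations had r of 0.87 to 0.98. Unlike the settings below, this r was not taken over deviations from the group means. In these libraries Idh2 was at 757 to 1023 CPM in osimertinib and 229 to 367 CPM in placebo, so this r includes the difference between groups. In deviations that also took out the atrial transcripts, they ran between 0.06 and 0.86, with 8 over 0.5. In deviations that also took out the cardiomyocyte marker sum, they ran between -0.34 and 0.87, with a median of 0.29 and 6 over 0.5. The other 12 relations ran between -0.53 and 0.86 with the atrial transcripts taken out, with 3 over 0.5, and between -0.70 and 0.77 with the cardiomyocyte sum taken out, with 2 over 0.5, the highest being Ppargc1b with Idh2. Tfam with Sdha was at 0.87, Esrrg with Idh2 at 0.84 and Perm1 with Idh2 at 0.08 in that setting. The part of cell make-up in the correlations was not tested.

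**Figure D4:**
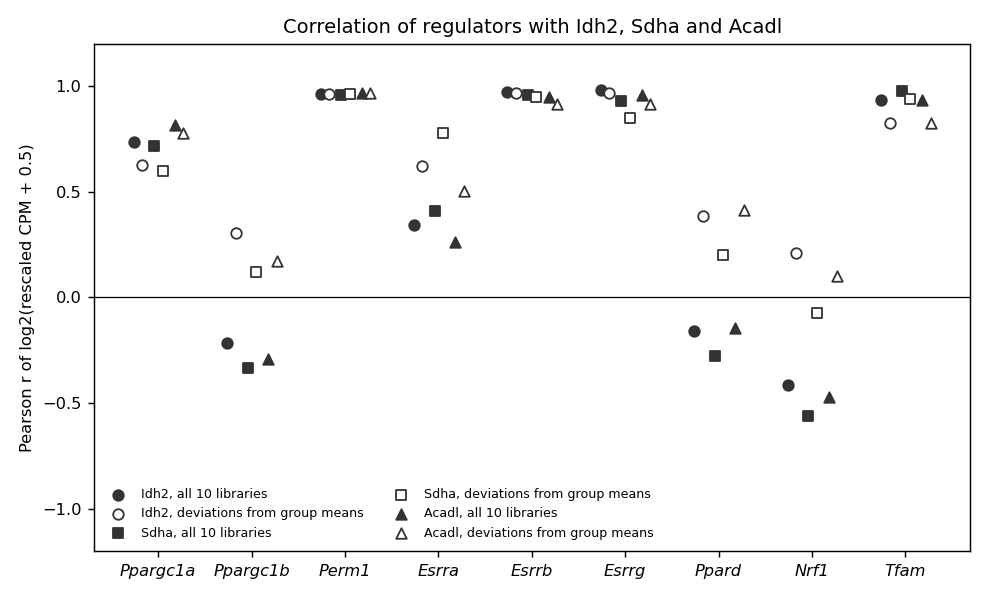
Pearson's r of 9 regulators with Idh2 (circles), Sdha (squares) and Acadl (triangles), over all 10 libraries (filled) and over deviations from the group means (open). Perm1, Esrrb, Esrrg and Tfam stay above 0.8 in both, whereas Ppargc1b, Ppard and Nrf1 are below 0 over all libraries.

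The genes most like each member, out of 11673 compared over 10 libraries, were listed by r as a description. Perm1 was nearest to Slc2a4, the insulin-responsive glucose transporter, at r above 0.99, then to Pebp1 and Mrpl28. Esrrb was nearest to Mrpl39, Lpin1 and Pygm and Tfam to Vps53, Mrps30 and Vdac1, and Asb2 and Idh2 were among the nearest to Esrrg, all at 0.98 to 0.99. Ppargc1a was nearest to Dnaja4 at 0.95, Sgcd at 0.93 and Cox17 at 0.93. Ppard came closest to Atp11a, Slc38a3 and Lrrc8a, Nrf1 to B4galt7, Pskh1 and Depp1, Esrra to Fam229b, Pnck and Ano10, and Ppargc1b to Ubald1, Casp6 and Mcm8. More than 0.9 was reached by 1137 genes with Perm1, 948 with Tfam, 937 with Esrrb and 777 with Esrrg, against 31 with Ppargc1a, 14 with Ppard, 11 with Nrf1, 3 with Esrra and 1 with Ppargc1b.

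Lists of known target genes held genes called higher and none called lower. These lists were chosen with earlier results of these data known, so their counts are a description. Of 24 ERR targets of energy metabolism, 16 rose and 0 fell, with a median log2 fold change of 1.08, beside 0.01 over all genes. Of all tested genes, 10.4% were called higher and 10.5% lower. Fh1, fumarate hydratase, rose by 1.41 ± 0.31, Ogdh, a subunit of oxoglutarate dehydrogenase, by 1.10 ± 0.27, Idh3a, of the NAD-dependent isocitrate dehydrogenase, by 1.06 ± 0.23, and Mfn2, which fuses mitochondria, by 0.78 ± 0.18, with limma adjusted p of 0.0161 to 0.0205. Of 26 PPAR targets of lipid use, 8 rose, Acadl among them, and 0 fell, with a median of 0.87. The 18 that were not called ran from -0.24 for Ucp2 to 1.22 for Pdk4. Among these, Cd36 and Plin2 were at 0.01, Cpt1a and Slc27a1 at 0.02 and Cpt1b at 0.10. Hadhb, of the trifunctional protein of fatty acid oxidation, rose by 1.42 ± 0.37, Acadm, the medium-chain dehydrogenase, by 0.98 ± 0.26, and Acot1, a thioesterase, by 0.98 ± 0.25 (adjusted p = 0.0252 or below). In the deposited CPM, 20 of the 24 and 15 of the 26 passed, beside 6.62% of all genes called higher. On that scale 98.1% of the called genes were higher, and the median log2 fold change of all genes was 0.27. Over all 8 pathway lists 43 genes were called, and leaving out osimertinib library 3 or 5, or placebo library 1 or 2, left 6, 8, 10 and 14 in that order. Cardiomyocyte marker sums, given above, were highest in osimertinib libraries 3 and 5 and lowest in placebo libraries 1 and 2.

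The counts over cofactors were near those over all genes, of which 10.4% were called higher and 10.5% lower. Among 14 RXR partners and coactivators, 2 rose and 1 fell: the acetyltransferase Kat2b rose by 0.40 ± 0.09, Lpin1, a phosphatidate phosphatase that also coactivates PPARα, rose by 0.66 ± 0.19, and Ncoa3, a steroid receptor coactivator, fell by 0.51. Among 12 corepressors, Tbl1xr1 rose by 0.55 ± 0.12 and Prox1 by 0.57 ± 0.15, while Kat2a, which acetylates and represses PGC-1α, fell by 0.65. The medians of both lists, -0.04 and -0.003, were near that of all genes. None of the cofactors named here was called in the deposited CPM, where Rxrg alone of both lists passed (log2 fold change 1.05, 0.78 when rescaled with adjusted p = 0.0623); it is named after its values were seen.

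Of 19 upstream inputs to Ppargc1a, 2 rose and 4 fell, beside 10.4% and 10.5% of all genes, with a median of -0.10. Prkaa2, the catalytic α2 subunit of AMPK, averaged 19.8 ± 6.01 CPM in osimertinib libraries and 8.05 ± 2.79 CPM in placebo libraries (SD, n = 5 each) and rose by 1.26 ± 0.25 with no overlap. Foxo3 rose by 0.49 ± 0.14. The CREB coactivators Crtc2 and Crtc1 fell by 0.57 and 0.43, Sirt1, a deacetylase of PGC-1α, fell by 0.52, and Klf4 fell by 0.74, all with limma adjusted p of 0.0140 to 0.0307. Prkaa2 alone of these 6 was also called in the deposited CPM.

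Around mitochondrial DNA, 3 of 14 genes rose and 2 fell, beside the same shares of all genes. Tfb2m, the partner of Tfam at the promoter, rose by 0.46 ± 0.13, the elongation factor Tefm by 0.67 ± 0.20 and the protease Lonp1, which degrades Tfam, by 0.56 ± 0.18, while Mterf3 fell by 0.58 and the polymerase Polg fell by 0.34. In the deposited CPM Tefm alone of these 5 was called, and Polg (-0.06, adjusted p = 0.943) and Mterf3 (-0.30, adjusted p = 0.648) were not. Of 5 GABP and YY1 factors, Gabpb1 fell by 0.40 (limma adjusted p = 0.0475). The 13 mitochondrially encoded mRNAs gave 0 calls, with a median log2 fold change of -0.61, and of -0.32 in the deposited CPM. The lowest limma p were those of mt-Nd4l (-0.99, adjusted p = 0.0828) and mt-Atp8 (-1.01, adjusted p = 0.0942). The sum of the 13 was 265535 to 445215 rescaled CPM in osimertinib libraries and 271463 to 447372 in placebo libraries 1 to 4. It was 1366060 in placebo library 5, whose rescaling factor was 0.455, so the median rests largely on that library.

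**Figure D5:**
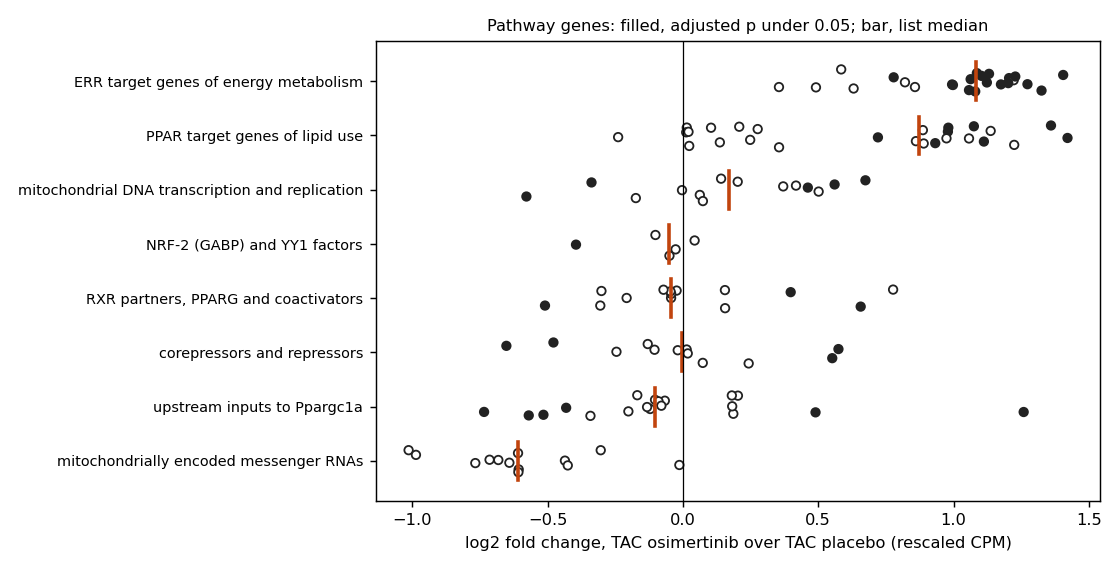
Log2 fold change of TAC osimertinib over TAC placebo (rescaled CPM) for the genes of 8 pathway lists, filled where the limma adjusted p was under 0.05, with a bar at the list median. The ERR targets all lie to the right of 0, between 0.35 and 1.41, the PPAR targets spread from -0.24 to 1.42, and the lists of cofactors and upstream inputs spread to both sides of 0.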

How the data were processed

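Poly(A) RNA libraries from left ventricle were sequenced. STAR alignment to GRCm38, RSEM quantification in the nf-core pipeline and a limma and voom comparison are named in the design text. The submitters' processing notes instead name cutadapt 1.9, HISAT2 2.0.4, StringTie 1.3.4d, DESeq2 and the build hg38, so which steps made the table is not settled. The authors deposited CPM, summing to 1000000 per library. Estimated reads were whole in 90.7% to 93.4% of values (tolerance 0.01), so a count model is not the main test, and voom on these estimates was run as an alternative.

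Genes at 1 deposited CPM or more in at least 5 libraries (12350) were tested, after the CPM were rescaled by median ratio. The test, on log2(CPM + 0.5), used limma 3.58.1 in R 4.3.3 and Benjamini-Hochberg adjustment at 0.05. The fold change is on that scale and understates low genes. The code was tested on simulated data. Exact permutation tests covered every assignment of 5 against 5, 2-sided, and correlations 100000 resamples. Gene positions and transcript lengths follow GENCODE M21.

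The members and lists were chosen with earlier results of these data known. Named were all members and the 3 enzymes, up to 4 called genes per list and direction with the lowest p (the 2 lowest where none was called), and the 3 genes most like each member. Some genes that this rule names are not reported here. Alternatives covered scaling, pseudocount, filter, trend, weights, replicate block, atrial transcripts and each library left out. Voom on estimated reads, the cardiomyocyte covariate, the tissue settings and the background share of the correlations and the motif AAGGTCA were added after the data were seen.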

Additional observations from a re-analysis of the deposited data

Results flagged for a closer look

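In 4 of 36 groups of 5 libraries, 1 library lay farther from the rest than 0.71 of the group's range, and chance flags about 1 in 20 groups. Ppargc1a in placebo library 3 was at 23.9 CPM, while the other placebo libraries were at 5.47 to 9.77 CPM. The Ppargc1a to Ppargc1b log2 ratio was 3.11 in the same library, and 2.00 in osimertinib library 1, which lay below the other osimertinib libraries. Ppara in placebo library 4 was at 0.983 CPM, a level of few reads.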

How the results depend on the processing

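The number of genes called was 2574, and 833 in the deposited CPM, 1263 without a filter, 1320 with the replicate block in the deposited CPM, 4704 with the atrial covariate and 106 with the cardiomyocyte covariate, where 0 members were called. Members called were 3, and 1 without a filter and 5 with the atrial covariate or the replicate block in the deposited CPM. With a library left out, 512 to 2807 genes and 0 to 5 members were called (307 to 1126 genes and 0 to 4 members in the deposited CPM), 6 to 52 pathway genes against 43, and 0 to 3 ratios. The lowest rescaled counts came without osimertinib library 3. In the deposited CPM the log2 fold changes of Ppard (0.086), Esrra (0.27) and Nrf1 (0.020) turned positive, with or without the block, and the lowest of the other correlations became 0.25. With a library left out, over both scalings, Esrra ran from -0.082 to 0.39, Nrf1 from -0.30 to 0.20, Ppard from -0.28 to 0.24 and Ppargc1b from -0.49 to 0.043. With the cardiomyocyte covariate, deviations of Ppargc1a with Idh2 (-0.34) and Sdha (-0.26), of Esrrb with Acadl (-0.054) and of Esrrg with Sdha (-0.075) turned negative. The replicate block called 2949 genes, among them Perm1 (adjusted p = 0.0324) but not Esrrg (0.0529). Whether title numbers pair the samples was not settled. Deviations of libraries with the same number correlated at 0.43, 0.25, 0.46, -0.34 and -0.16, and 5 of 10 libraries correlated best with their own number. These values neither show nor exclude a pairing. The causes were not tested. Low members such as Ppara rest on few reads.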
